A study of Homo sapiens with 18 samples.

Results

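The genes that encode the alpha chains of the collagens were described across 3 human lung cancer cell lines before and after an epithelial-mesenchymal transition (EMT). They were taken as every gene of the expression table whose symbol reads COL, a type number, A and a chain number, which gave 43 genes of 19849. The symbol alone decided which genes entered, but earlier results of these data were known when the list was chosen. Each gene is represented by 1 probe set of an Affymetrix U133 Plus 2.0 array; other probe sets of the same genes were not analysed here. Values are log2 levels, so that a difference of 1 is a 2-fold change, and the level of one gene was never set against the level of another, because probe sets differ in how brightly they hybridise. Probe sets whose name ends in _s_at can match several transcripts of a gene or of related genes.

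The arrays came from A549, HCC827 and NCI-H358 cells, each an established line of non-small cell lung cancer. Each line was profiled as parental cells and as mesenchymal cells obtained by growth in 2 ng/ml TGFβ, with 3 arrays in each of the 6 groups and 18 arrays in all. Exposure to TGFβ lasted 3 weeks in every line by the labels, while by the methods A549 received it for 2 to 3 weeks and HCC827 as well as NCI-H358 for 3 to 5, so the lines may have differed in exposure. All cells grew in RPMI1640 with serum and glutamine, and the mesenchymal cells were moved to medium without TGFβ on the day before lysis. Each line is a single culture lineage, and the p-values measure only the spread between samples within groups. For each gene that spread was pooled over all 6 groups and moderated by limma with that of the other genes. The 3 samples of a group are described in the study as separate biological samples generated together. In bulk RNA of this kind, fewer cells expressing a gene and less RNA per cell cannot be told apart.

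Collagens are triple helices of 3 alpha chains, and the chain genes fall into classes by the structure their products build. Fibrillar collagens form the banded fibrils of connective tissue, basement membrane collagens form the sheet under epithelia, network collagens form beaded filaments and hexagonal lattices, FACIT collagens (fibril-associated collagens with interrupted triple helices) decorate fibrils, and transmembrane collagens sit in the cell membrane. TGFβ is a known inducer of fibrillar collagen synthesis in fibroblasts, and a change of matrix genes is part of the usual description of EMT. By these classes the table held 11 fibrillar, 9 basement membrane, 8 network, 10 FACIT and 4 transmembrane chain genes, and 1 chain, COL28A1, outside them.

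The array medians lay between 6.31 and 6.47. The labels were checked on marker genes. Of 8 epithelial markers, 3 fell in A549 and all 8 did in HCC827 as in NCI-H358, and the change of CDH1, which encodes E-cadherin, was -5.81, -2.95 and -3.94 log2 units. Of 5 markers of the mesenchymal state, 3, 5 and 5 rose in the same order of lines.

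A chain is said here to have risen or fallen where the limma adjusted p was below 0.05 and the change exceeded 2-fold. By this rule most chains did neither in a given line, and those that rose outnumbered those that fell. In A549 12 of the 43 rose, against 4.15% of all genes, and 4 fell, against 3.87%. In HCC827 17 rose, against 4.89% of all genes, and 6 fell, against 6.58%. In NCI-H358 12 rose, against 3.96%, and 2 fell, against 5.42%. The median change over the 43 chains was 0.13, 0.31 and 0.10 log2 units in A549, HCC827 and NCI-H358, while the median over all genes was -0.02, 0.01 and 0.02. The shift of the list as a whole was small, and its calls came from some of its members. At a limma adjusted p below 0.05 and any size, 20 chains changed in A549, against 43.4% of all genes, 28 in HCC827, against 45.8%, and 24 in NCI-H358, against 41.4%. By this looser measure 20 of 43 chains in A549 is near the share of all genes. The 3 mesenchymal arrays all lay above the 3 parental arrays for 17 chains in A549, against 21.0% of all genes, and all below for 11, against 31.4%. In HCC827 they lay above for 21, against 23.8%, and below for 9, against 27.4%. In NCI-H358 they lay above for 19, against 27.2%, and below for 6, against 24.4%. Altogether 30 chains rose or fell in at least 1 line, against 19.4% of all genes, and 13 did neither in any line.

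A core of chains rose in each line. COL1A1, COL3A1, COL6A3, COL12A1, COL15A1 and COL27A1 rose in all 3 lines; these are 6 of 43 chains, against 0.761% of all genes. No chain fell in all 3 lines by the 2-fold rule, against 0.907% of all genes. At an unadjusted limma p below 0.05 and any size, 2 chains, COL18A1 and COL28A1, were lower in all 3. The share of all genes lower in all 3 by this measure was not counted, so the 2 cannot be set against other genes. COL18A1 was also lower in all 3 at a limma adjusted p below 0.05, by less than 2-fold. COL28A1 was not, with a limma adjusted p of 0.0817 in A549. Another 7 chains rose in a pair of lines, against 2.15% of all genes, and 8 in 1 line, against 5.42%, without falling in any. COL8A1 and COL21A1 fell in a pair of lines, against 2.83% of all genes, and 6 chains in 1 line, against 6.41%, without rising in any. COL4A6 rose in one line and fell in the others, a pattern that 0.937% of all genes showed in some arrangement. The size of the change differed between at least 1 pair of lines for 33 of the 43 chains at a limma adjusted p below 0.05, against 60.2% of all genes. Taken pair by pair, 25 chains differed between HCC827 and A549, against 42.2% of all genes, 25 between NCI-H358 and A549, against 42.8%, and 31 between NCI-H358 and HCC827, against 37.9%.

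**Figure D1:**
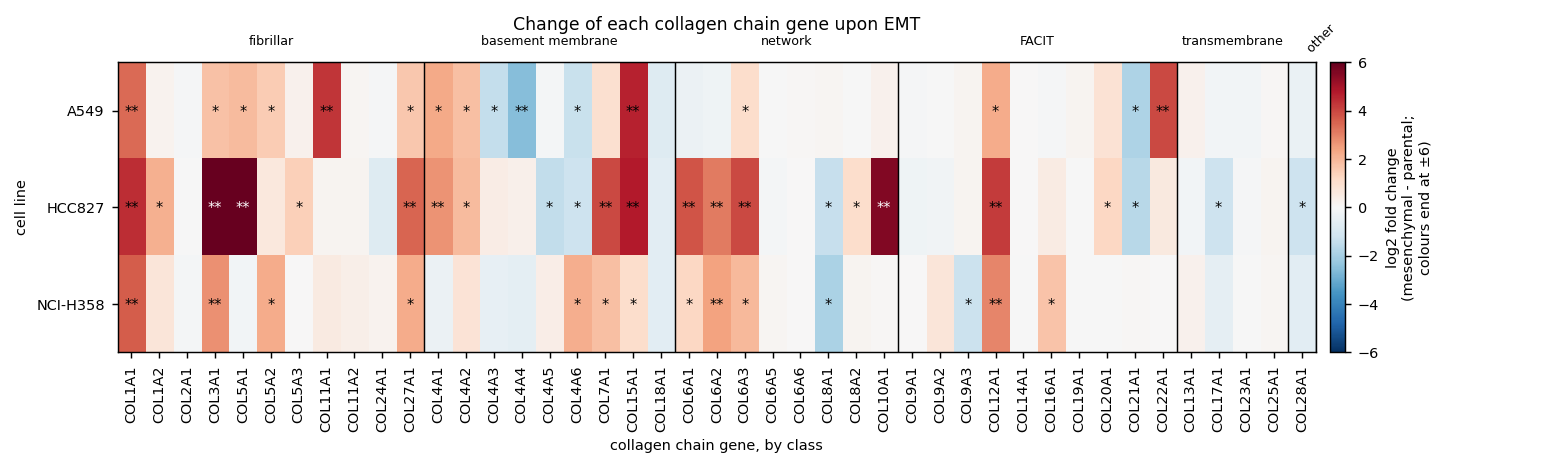
Each column is 1 of the 43 collagen chain genes, grouped by class, each row a cell line, and the colour is the log2 fold change (mean of 3 mesenchymal arrays minus mean of 3 parental arrays; colours end at 6 units). One asterisk marks a change past the 2-fold rule and a pair of asterisks marks a change of over 5-fold with limma adjusted p below 1e-05; COL1A1 has a pair in all 3 rows, and COL4A6 is blue in A549 and HCC827 and red in NCI-H358.

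The classes differed in how many of their members moved. Of the 11 fibrillar chains, 6, 6 and 4 rose in the order A549, HCC827 and NCI-H358, none fell in any line (at an unadjusted limma p below 0.05 and any size, 0, 1 and 0 were lower, the 1 being COL24A1), and their median change was 1.53, 1.45 and 0.55 log2 units. Of the 9 basement membrane chains, 3, 4 and 3 rose and 3, 2 and 0 fell, with medians of -0.13, 0.47 and 0.41. Of the 8 network chains, 1, 5 and 3 rose and 0, 1 and 1 fell, with medians of 0.01, 2.10 and 0.14. The FACIT class was the same in number in each line, with 2 of 10 chains up and 1 down. COL12A1 rose in every line. The other chain past the 2-fold rule was COL22A1 in A549, COL20A1 in HCC827 and COL16A1 in NCI-H358. COL21A1 was the chain that fell in A549 and HCC827, and COL9A3 in NCI-H358. No transmembrane chain rose in any line. At an unadjusted limma p below 0.05 and any size, 1, 0 and 1 were higher and 0, 1 and 1 lower. COL17A1, a component of the hemidesmosome that anchors epithelial cells to the basement membrane, was the only 1 of the 4 that fell, in HCC827. Its change in NCI-H358 was -0.54 log2 units (limma adjusted p = 1.22e-05), which is under 2-fold. These counts and medians describe the lists and were not tested against each other. Shares of all genes at the unadjusted p were not counted, so the counts at that p cannot be set against other genes.

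The study worked with stricter thresholds, a limma adjusted p below 1e-05 and a change of over 5-fold. They were passed in at least 1 line by 15 chains, against 5.40% of all genes. In A549 4 chains passed upward, against 1.17% of all genes, and 1 downward, against 0.736%. In HCC827 12 passed upward, against 1.32%, and 0 downward, against 1.63%. In NCI-H358 4 passed upward, against 0.811%, and 0 downward, against 1.36%.

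**Figure D2:**
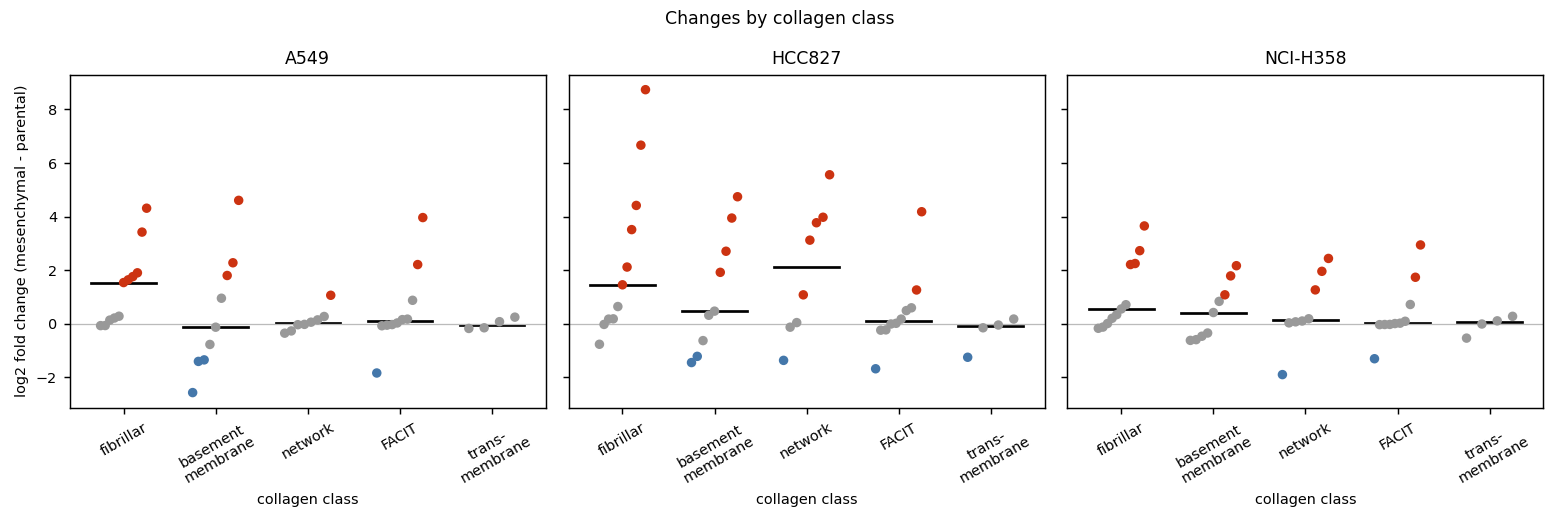
Points are collagen chain genes, ordered by value within a class, the vertical axis is the log2 fold change upon EMT, and each panel is a cell line; red points rose and blue points fell by the 2-fold rule, grey points did neither, and the black bar is the class median. The fibrillar bars stand at 1.53, 1.45 and 0.55, and the network bar stands at 2.10 in HCC827 and near 0 in the other lines; COL28A1 is not drawn.

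COL1A1 (probe set 1556499_s_at) encodes the main chain of type I collagen, the most abundant fibrillar collagen of the body, and it was the only chain past the stricter thresholds in all 3 lines; 0.121% of all genes passed them in all 3 in this direction. It read 8.43, 8.64 and 8.46 in parental A549 and 11.94, 11.95 and 11.89 in mesenchymal A549. In HCC827 it read 8.55, 8.06 and 8.16 before and 12.76, 12.68 and 12.56 after EMT. In NCI-H358 it read 8.73, 8.87 and 8.95 before and 12.50, 12.56 and 12.44 after. Parental and mesenchymal arrays were far apart in each line, and the parental levels of the 3 lines lay close to each other. The change was 3.42, 4.41 and 3.65 log2 units, each with a standard error (SE) of 0.105, or 10.7-, 21.3- and 12.5-fold (limma adjusted p = 6.78e-14, 2.38e-15 and 3.99e-14). Its partner in the type I triple helix, COL1A2, gave a different picture. COL1A2 rose 4.33-fold in HCC827 (limma adjusted p = 1.07e-06), and its change was 0.71 ± 0.24 (SE) in NCI-H358 and 0.21 ± 0.24 in A549, where the groups overlapped. Its probe set was dim, between 2.86 and 5.76 over all 18 arrays.

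COL3A1 (probe set 215076_s_at) encodes the chain of type III collagen, which is laid down with type I in soft connective tissue. Its levels in mesenchymal HCC827 were 12.98, 13.01 and 13.31, against 4.49, 4.01 and 4.58 in the parental cells. In A549 it went from 4.68, 4.72 and 4.51 to 6.23, 6.36 and 6.59. In NCI-H358 it went from 4.35, 4.28 and 4.39 to 7.11, 6.95 and 7.14. The groups did not overlap in any line, the 9 parental arrays were all low, and HCC827 stood far above the others after EMT. The rise was 8.74 ± 0.133 log2 units (SE) in HCC827, or 428-fold, which exceeded that in A549 by 6.98 (limma adjusted p of the difference 7.68e-14). The difference NCI-H358 minus HCC827 was -6.01 (limma adjusted p = 5.95e-13). The rises in A549 and NCI-H358 were 3.38- and 6.61-fold.

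The type V chains, which nucleate and set the width of type I fibrils, moved separately. COL5A1 (probe set 212488_at) read 9.63, 9.83 and 9.67 in parental A549 and 11.64, 11.63 and 11.56 in mesenchymal A549. In HCC827 it read 5.68, 5.82 and 6.07 before and 12.51, 12.39 and 12.68 after, and in NCI-H358 5.11, 4.59 and 4.77 before and 4.51, 4.78 and 4.66 after. A549 was thus high from the start, HCC827 was high after EMT, and the NCI-H358 groups overlapped at a low level. In the order A549, HCC827 and NCI-H358 the change was 1.90, 6.67 and -0.18, each with an SE of 0.124 (limma adjusted p = 1.35e-09, 1.51e-16 and 0.301). COL5A2 rose by 1.53 in A549 and by 2.21 in NCI-H358, and its change in HCC827 was 0.64 ± 0.115 (SE), which is under 2-fold. For NCI-H358 minus HCC827 the difference in change was 1.57 for COL5A2 (limma adjusted p = 7.68e-07) and -6.84 for COL5A1 (limma adjusted p = 4.79e-14). COL5A3 rose in HCC827, by 1.45.

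COL11A1 (probe set 37892_at) encodes a chain of type XI collagen, a minor fibrillar collagen of cartilage. Its levels were 5.82, 5.71 and 5.53 in parental and 10.03, 10.00 and 9.97 in mesenchymal A549. It read 3.89, 3.74 and 4.36 before and 4.25, 3.97 and 4.27 after EMT in HCC827, and 4.02, 3.31 and 3.77 before and 4.27, 3.97 and 4.50 after in NCI-H358. Only the A549 groups stood apart. The rise in A549 was 4.31 ± 0.177 log2 units (SE), or 19.9-fold, and the difference from A549 was -4.14 in HCC827 and -3.76 in NCI-H358 (limma adjusted p = 7.22e-10 and 2.33e-09). NCI-H358 cells gave 0.55 (limma adjusted p = 0.019), which lost the call without the second parental, the first mesenchymal or the third mesenchymal array (limma adjusted p = 0.124, 0.0504 and 0.0988).

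COL27A1 (probe set 225288_at), a fibrillar chain of cartilage, read 7.63, 7.80 and 7.79 in parental and 9.42, 9.38 and 9.33 in mesenchymal A549. It read 6.04, 5.76 and 5.36 before and 9.24, 9.20 and 9.27 after in HCC827, and 3.58, 3.63 and 3.67 before and 5.86, 5.70 and 6.05 after in NCI-H358. The groups were separate in each line, and mesenchymal NCI-H358 stayed below parental A549. The rise was 3.11-, 11.4- and 4.74-fold (limma adjusted p = 1.08e-08, 4.11e-13 and 1.51e-10), and it was larger in HCC827 than in A549 by 1.88 log2 units (limma adjusted p = 1.87e-07). The remaining fibrillar chains, COL2A1, COL11A2 and COL24A1, rose or fell in no line.

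**Figure D3:**
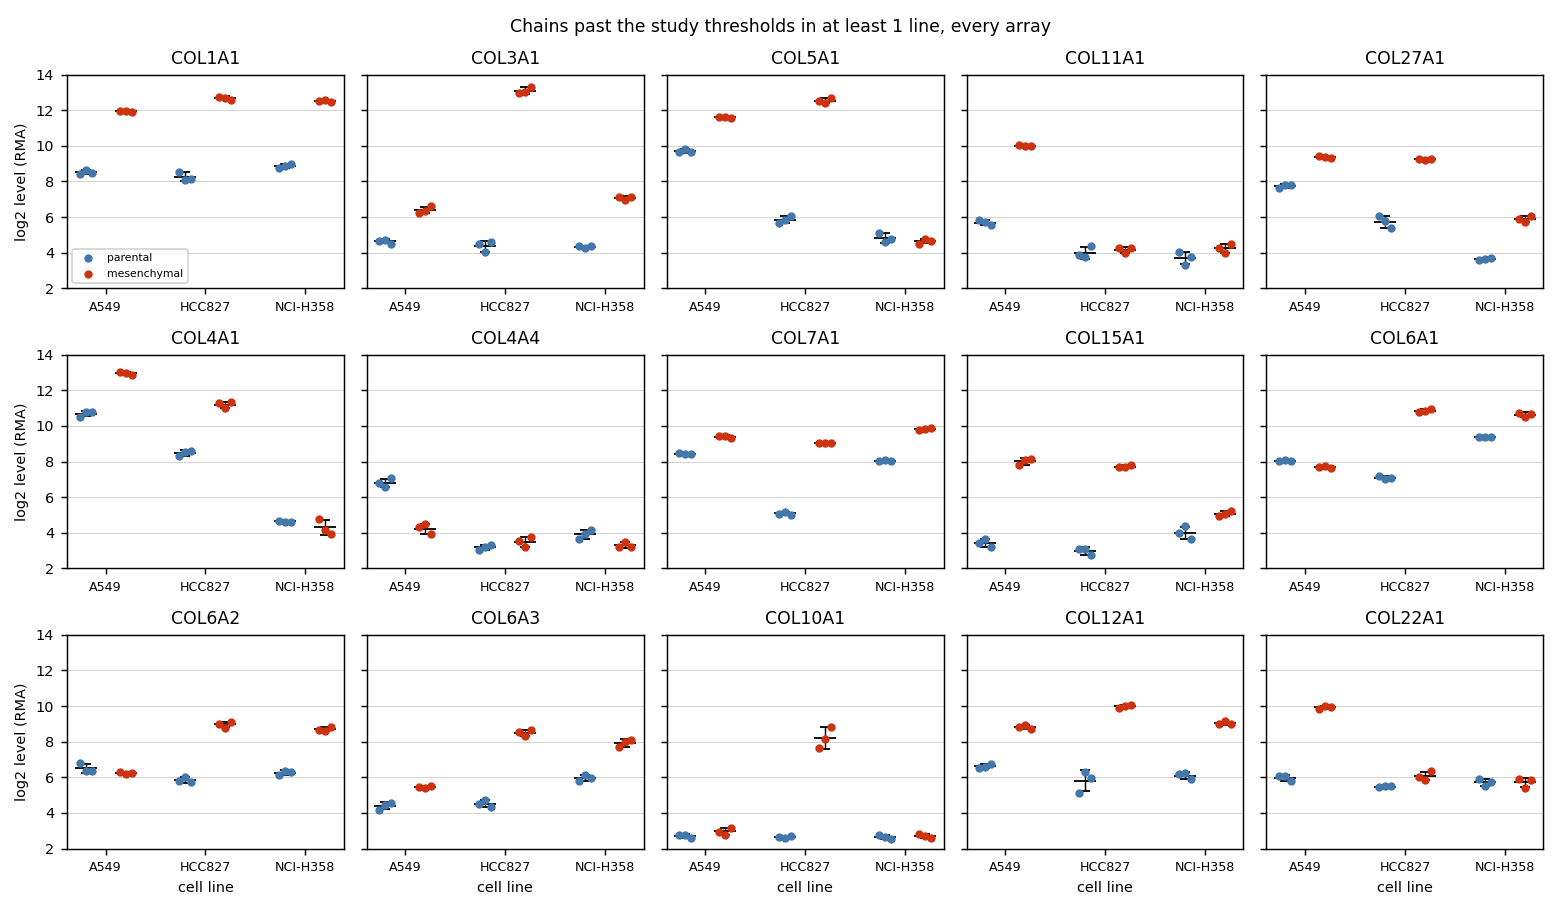
Each panel is 1 of the 15 chains that passed the stricter thresholds in at least 1 line; points are the 3 arrays of a group, the horizontal axis is the cell line, the vertical axis is the log2 level, and bars are mean and SD. COL1A1 rises in each line, COL3A1 reaches 12.98 to 13.31 in mesenchymal HCC827, and COL11A1 and COL22A1 are high in mesenchymal A549.

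The 6 type IV chains of the basement membrane are encoded by 3 pairs of neighbouring genes that start back to back, COL4A1 with COL4A2, COL4A3 with COL4A4 and COL4A5 with COL4A6. No other protein-coding gene lies between the members of a pair in the RefSeq annotation. COL4A1 and COL4A2 make the type IV collagen that is found in nearly every basement membrane. The starts of this pair lie 126 bases apart on chromosome 13, and the interval, from RefSeq promoter windows on GRCh38.p14, is printed because both genes start at its ends. It is chr13:110307158-110307283, shown 5′ to 3′ in the direction of COL4A2, with the CCAAT box and the GC box (GGGCGG) in capitals.
COL4A1 to COL4A2: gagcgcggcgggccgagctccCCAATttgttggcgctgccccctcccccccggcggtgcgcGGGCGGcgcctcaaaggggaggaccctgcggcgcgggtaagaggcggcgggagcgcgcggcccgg
The interval is 80.2% G and C.

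COL4A1 (probe set 211980_at) read 10.51, 10.77 and 10.77 in parental A549 and 13.01, 12.97 and 12.89 in mesenchymal A549. It read 8.31, 8.54 and 8.61 before and 11.26, 11.00 and 11.32 after in HCC827, and 4.68, 4.63 and 4.63 before and 4.78, 4.18 and 3.94 after in NCI-H358. The groups were separate in A549 and HCC827 and overlapped in NCI-H358, which stood far below the other lines in both states. COL4A1 rose 4.83-fold in A549 and 6.52-fold in HCC827 (limma adjusted p = 2.68e-09 and 1.93e-10), and its change in NCI-H358 was -0.35 ± 0.156 (SE; limma adjusted p = 0.0869). This change was on the other side of the 0.05 threshold with an intensity trend in the variance (limma adjusted p = 0.0495) and without the first mesenchymal array (-0.59, limma adjusted p = 0.00063). COL4A2 rose 3.48-fold in A549 and 3.77-fold in HCC827, and its change in NCI-H358 was 0.83 ± 0.143 (SE; limma adjusted p = 0.000127), which is 1.78-fold. Parental NCI-H358 was lower than parental A549 by a difference of -6.04 for COL4A1 and -7.12 for COL4A2.

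COL4A3 and COL4A4 encode chains of the specialised basement membranes of kidney and lung. Their starts lie 418 bases apart on chromosome 2. The 250 bases before COL4A3, chr2:227164374-227164623 (GRCh38.p14, plus strand, RefSeq), are given with GC boxes (GGGCGG or CCGCCC) and an E-box (CACCTG, the complement of CAGGTG) in capitals, because both genes fell in the same line and this stretch lies between them.
COL4A3: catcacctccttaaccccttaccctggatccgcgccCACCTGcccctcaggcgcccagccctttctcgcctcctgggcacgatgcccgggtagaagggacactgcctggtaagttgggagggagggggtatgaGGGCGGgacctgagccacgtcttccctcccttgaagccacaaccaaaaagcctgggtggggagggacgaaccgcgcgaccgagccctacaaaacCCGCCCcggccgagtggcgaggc
COL4A4 (probe set 229779_at) read 6.77, 6.60 and 7.05 in parental and 4.30, 4.47 and 3.92 in mesenchymal A549. It read 3.05, 3.18 and 3.34 before and 3.52, 3.21 and 3.76 after in HCC827, and 3.64, 3.94 and 4.14 before and 3.19, 3.50 and 3.23 after in NCI-H358. Parental A549 was the only high group. The decrease in A549 was 5.97-fold (-2.58 ± 0.169 log2 units, SE; limma adjusted p = 1.51e-09), the only decrease of a collagen chain past the stricter thresholds. COL4A3 decreased 2.66-fold in A549, from arrays at 5.43, 5.04 and 4.25 to 3.62, 3.33 and 3.53. The change of COL4A4 in NCI-H358 was -0.60 (limma adjusted p = 0.00834, and 0.051 without the third parental array), and in HCC827 the changes of COL4A3 and COL4A4 were 0.47 and 0.31 and did not pass the test. For HCC827 minus A549 the difference was 2.89 for COL4A4 and 1.88 for COL4A3 (limma adjusted p = 3.79e-08 and 3.34e-05).

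COL4A5 and COL4A6 share the X chromosome, with 379 bases between the start of COL4A5 and the nearest start of COL4A6. The 250 bases before COL4A5, chrX:108439588-108439837 (GRCh38.p14, plus strand, RefSeq), are shown because the neighbours moved differently; the capitals mark CCAAT and its complement ATTGG.
COL4A5: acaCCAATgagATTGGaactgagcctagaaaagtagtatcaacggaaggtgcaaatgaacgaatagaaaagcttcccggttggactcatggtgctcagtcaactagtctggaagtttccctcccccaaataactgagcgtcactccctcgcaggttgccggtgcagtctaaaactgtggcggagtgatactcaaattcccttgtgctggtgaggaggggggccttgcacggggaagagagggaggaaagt
COL4A6 (probe set 213992_at) was the only chain that rose in one line and fell in another by the 2-fold rule. It read 9.74, 9.93 and 9.84 in parental and 8.47, 8.47 and 8.50 in mesenchymal A549. It read 5.47, 5.50 and 5.59 before and 4.30, 4.18 and 4.42 after in HCC827, and 3.87, 3.45 and 3.55 before and 5.74, 5.74 and 5.87 after in NCI-H358. The groups were separate in each line, downward in A549 and HCC827 and upward in NCI-H358. The changes were -1.36, -1.22 and 2.16 log2 units with an SE of 0.0944 (limma adjusted p = 3.2e-09, 8.6e-09 and 6.48e-12), and NCI-H358 differed from A549 by 3.52 (limma adjusted p = 2.03e-12). COL4A5 fell 2.74-fold in HCC827, from 10.24, 9.88 and 9.91 to 8.58, 8.44 and 8.65. Its change was -0.13 in A549 and 0.41 in NCI-H358 (limma adjusted p = 0.268 and 0.0013), both under 2-fold, and its level in NCI-H358 stayed at 3.05 to 3.64.

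**Figure D4:**
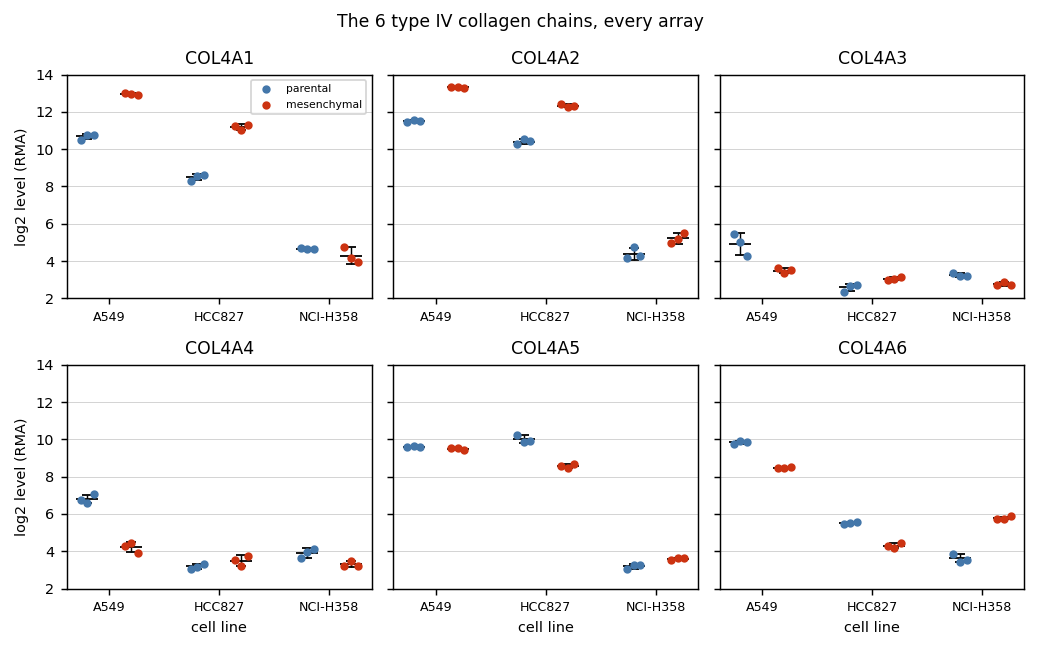
Each panel is 1 of the 6 type IV collagen chains; points are the 3 arrays of a group, the horizontal axis is the cell line, the vertical axis is the log2 level, and bars are mean and SD. COL4A1 and COL4A2 rise together in A549 and HCC827, COL4A3 and COL4A4 are lower in mesenchymal A549, and COL4A6 passes the 2-fold rule downward in A549 and HCC827 and upward in NCI-H358.

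Of the other basement membrane chains, COL15A1 and COL18A1 belong to the multiplexins, which bridge the basement membrane to the matrix beneath, and COL7A1 forms the anchoring fibrils below epithelia. COL15A1 (probe set 203477_at) read 3.40, 3.65 and 3.19 in parental and 7.81, 8.09 and 8.15 in mesenchymal A549. It read 3.10, 3.11 and 2.73 before and 7.67, 7.67 and 7.81 after in HCC827, and 3.96, 4.37 and 3.67 before and 4.94, 5.04 and 5.23 after in NCI-H358. All 3 lines began low and did not overlap with their mesenchymal arrays. The rise was 24.3-, 26.7- and 2.11-fold (limma adjusted p = 3.66e-13, 2.17e-13 and 2.98e-05). The call in NCI-H358 was lost when the third parental or the third mesenchymal array was left out, at a change of 0.91 or 0.995 log2 units. Between NCI-H358 and HCC827 the rise differed by -3.66 (limma adjusted p = 1.65e-09).

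COL18A1, the source of endostatin, gave changes of -0.78, -0.63 and -0.63 log2 units in A549, HCC827 and NCI-H358, each with an SE of 0.0804 (limma adjusted p = 4.76e-07, 3.84e-06 and 5.5e-06). The groups did not overlap in any line, but at 1.71-, 1.55- and 1.54-fold the changes stayed under 2-fold. COL7A1 (probe set 204136_at) read 5.06, 5.19 and 5.02 in parental and 9.03, 9.02 and 9.04 in mesenchymal HCC827. It read 8.47, 8.45 and 8.41 before and 9.42, 9.45 and 9.31 after in A549, and 8.02, 8.10 and 8.03 before and 9.78, 9.83 and 9.89 after in NCI-H358. Parental HCC827 stood apart as low, and after EMT the lines lay within 1 log2 unit of each other. COL7A1 rose 15.4-fold in HCC827 and 3.44-fold in NCI-H358, and its change in A549 was 1.93-fold (limma adjusted p = 1.28e-09).

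The beaded filament chains COL6A1, COL6A2 and COL6A3 assemble together into type VI collagen, the microfibril that surrounds many mesenchymal cells. COL6A1 (probe set 213428_s_at) read 7.17, 7.03 and 7.09 in parental and 10.79, 10.82 and 10.97 in mesenchymal HCC827. It read 9.35, 9.36 and 9.39 before and 10.74, 10.49 and 10.65 after in NCI-H358, and 8.01, 8.09 and 8.02 before and 7.68, 7.74 and 7.62 after in A549. The groups were separate in all 3 lines, upward in HCC827 and NCI-H358 and slightly downward in A549. COL6A1 rose 13.6-fold in HCC827 and 2.39-fold in NCI-H358, and its change in A549 was -0.36 ± 0.0722 log2 units (SE; limma adjusted p = 0.000609).

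COL6A2 (probe set 209156_s_at) read 5.80, 6.04 and 5.71 in parental and 9.01, 8.79 and 9.10 in mesenchymal HCC827, and 6.11, 6.38 and 6.31 against 8.64, 8.63 and 8.84 in NCI-H358. In A549 it read 6.79, 6.38 and 6.35 before and 6.28, 6.19 and 6.24 after. COL6A2 rose 8.68-fold in HCC827 and 5.41-fold in NCI-H358, and the change in A549 was -0.27 (limma adjusted p = 0.0778, and 0.0439 without the third parental array). Neither of these chains rose in A549, and the change was larger in HCC827 than in A549 by 4.13 for COL6A1 and 3.39 for COL6A2 (limma adjusted p = 3.73e-14 and 6.87e-11).

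COL6A3 (probe set 201438_at) rose in all 3 lines. It read 4.17, 4.47 and 4.55 before and 5.45, 5.39 and 5.52 after EMT in A549, 4.51, 4.74 and 4.32 before and 8.52, 8.33 and 8.65 after in HCC827, and 5.80, 6.15 and 5.96 before and 7.68, 8.01 and 8.09 after in NCI-H358. The groups did not overlap. The rise was 15.7-fold in HCC827, 3.88-fold in NCI-H358 and 2.08-fold in A549 (limma adjusted p = 2.14e-13, 2.44e-09 and 5.36e-06). The A549 call was lost without the first parental array, at 0.95 log2 units. COL6A5 and COL6A6, the other beaded filament chains, rose or fell in no line.

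The hexagonal lattice chains divided. COL10A1 (probe set 217428_s_at), the chain of type X collagen of growth plate cartilage, read 2.67, 2.58 and 2.68 in parental and 7.62, 8.15 and 8.85 in mesenchymal HCC827. It read 2.74, 2.77 and 2.57 before and 2.94, 2.78 and 3.15 after in A549, and 2.75, 2.62 and 2.55 before and 2.80, 2.70 and 2.62 after in NCI-H358. Mesenchymal HCC827 was the only group above 3.15. The rise was 47.2-fold (5.56 ± 0.198 log2 units, SE; limma adjusted p = 4.11e-13), and NCI-H358 differed from HCC827 by -5.49 and HCC827 from A549 by 5.29 (limma adjusted p = 1.68e-10 and 1.4e-10). COL8A1, a chain of the lattice under endothelium and cornea, fell 2.59-fold in HCC827 and 3.75-fold in NCI-H358, and its change in A549 was 0.14. Its parental level was higher by 6.74 log2 units in NCI-H358 than in A549. COL8A2 rose 2.11-fold in HCC827, a call that was lost at a change of 0.83 without the third mesenchymal array.

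Of the FACIT chains, COL12A1 (probe set 225664_at) encodes type XII collagen, which coats type I fibrils. It read 6.53, 6.56 and 6.74 in parental and 8.81, 8.93 and 8.71 in mesenchymal A549. It read 5.14, 6.29 and 5.98 before and 9.91, 10.01 and 10.03 after in HCC827, and 6.16, 6.25 and 5.88 before and 8.97, 9.13 and 8.99 after in NCI-H358. The groups were separate in each line, with a wider spread among the parental HCC827 arrays than elsewhere. COL12A1 rose 4.61-, 18.1- and 7.67-fold in A549, HCC827 and NCI-H358 (limma adjusted p = 6.46e-08, 1.21e-11 and 1.45e-09).

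COL22A1 (probe set 242326_at), a chain found at the junction of muscle and tendon, read 6.10, 6.06 and 5.78 in parental and 9.85, 10.02 and 9.95 in mesenchymal A549. It read 5.43, 5.49 and 5.51 before and 6.00, 5.86 and 6.34 after in HCC827, and 5.90, 5.54 and 5.72 before and 5.89, 5.42 and 5.86 after in NCI-H358. Only mesenchymal A549 was high, although the HCC827 groups did not overlap either. The rise there was 15.6-fold (limma adjusted p = 3.54e-13), the change in HCC827 was 0.59 ± 0.138 (SE), and NCI-H358 differed from A549 by -3.96 (limma adjusted p = 5.32e-11). Among the remaining chains that moved, COL16A1 rose in NCI-H358 by 1.73, COL20A1 rose in HCC827 by 1.26, and COL21A1 fell in A549 and HCC827, 3.59- and 3.22-fold. The change of COL20A1 in A549 was 0.87 (limma adjusted p = 4.21e-05), which is under 2-fold. For COL20A1 the difference HCC827 minus A549 was 0.39 (limma adjusted p = 0.117). COL9A3 fell 2.48-fold in NCI-H358, COL17A1 fell 2.39-fold in HCC827, and COL28A1 fell 2.34-fold in HCC827. The chains that did neither in any line were COL2A1, COL6A5, COL6A6, COL9A1, COL9A2, COL11A2, COL13A1, COL14A1, COL18A1, COL19A1, COL23A1, COL24A1 and COL25A1. Over all 43 chains, 27 had a mean log2 level of 5 or more over the 18 arrays.

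The lines also differed in their collagen chains within a state. Among parental cells, 21 of 43 chains passed the 2-fold rule in at least 1 pair of lines, against 30.7% of all genes, and among mesenchymal cells 25 did, against 29.6%. In parental HCC827, 3 chains were higher than in A549, against 10.2% of all genes, and 12 lower, against 8.62%. In parental NCI-H358, 6 were higher than in A549, against 10.7%, and 11 lower, against 9.79%. Set against HCC827, parental NCI-H358 had 7 higher, against 7.27%, and 6 lower, against 7.91%. Lower chains in HCC827 and NCI-H358 relative to A549 were thus the more frequent direction. Parental A549 was the highest line for several chains: COL5A2 differed from A549 by -6.30 log2 units in HCC827 and -6.29 in NCI-H358, and COL4A6 differed from A549 by -4.31 in HCC827 and -6.22 in NCI-H358. Parental NCI-H358 was low in COL4A5, which differed from A549 by -6.43, and high in COL13A1, a transmembrane chain of cell-matrix junctions, at 2.92 above A549. After EMT, 8 chains were higher in HCC827 than in A549, against 9.66% of all genes, and 6 lower, against 7.56%. In NCI-H358, 8 were higher than in A549, against 11.0%, and 12 lower, against 8.82%, and 7 were higher than in HCC827, against 7.72%, and 11 lower, against 7.51%. Mesenchymal HCC827 stood 6.71 above A549 for COL3A1, and differed from it by -7.19 for COL5A2 and -5.84 for COL11A1. Mesenchymal NCI-H358 differed from A549 by -8.66 for COL4A1 and by -8.09 for COL4A2, and from HCC827 by -7.88 for COL5A1.

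Of the 43 chains, 31 matched a RefSeq promoter window on GRCh38.p14, taken as 250 bases before to 50 bases after a start. Motifs and G and C content were read only in the 250 bases before the start, for the chains and for all windows. The windows of the chains that rose in all 3 lines and matched are printed here, 250 bases before the start, with GC boxes (GGGCGG, or CCGCCC on the other strand) in capitals. COL12A1 is chr6:75206054-75206303 on the minus strand, COL15A1 chr9:98943657-98943906 on the plus strand, COL27A1 chr9:114155287-114155536 on the plus strand and COL6A3 chr2:237414165-237414414 on the minus strand.
COL12A1: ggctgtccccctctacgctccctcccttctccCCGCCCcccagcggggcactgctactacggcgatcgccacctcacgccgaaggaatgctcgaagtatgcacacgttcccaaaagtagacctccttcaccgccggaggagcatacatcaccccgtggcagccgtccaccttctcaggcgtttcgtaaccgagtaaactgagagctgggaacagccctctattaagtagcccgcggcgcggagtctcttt
COL15A1: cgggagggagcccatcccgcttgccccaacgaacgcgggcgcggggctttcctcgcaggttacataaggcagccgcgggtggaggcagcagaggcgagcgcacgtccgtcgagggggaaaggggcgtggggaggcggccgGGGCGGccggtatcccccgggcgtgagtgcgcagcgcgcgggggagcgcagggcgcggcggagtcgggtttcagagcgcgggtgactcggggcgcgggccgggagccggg
COL27A1: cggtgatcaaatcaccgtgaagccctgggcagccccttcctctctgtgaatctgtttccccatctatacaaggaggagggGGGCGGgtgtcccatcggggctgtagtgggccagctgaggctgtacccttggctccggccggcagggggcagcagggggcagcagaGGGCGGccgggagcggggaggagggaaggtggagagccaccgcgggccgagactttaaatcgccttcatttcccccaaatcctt
COL6A3: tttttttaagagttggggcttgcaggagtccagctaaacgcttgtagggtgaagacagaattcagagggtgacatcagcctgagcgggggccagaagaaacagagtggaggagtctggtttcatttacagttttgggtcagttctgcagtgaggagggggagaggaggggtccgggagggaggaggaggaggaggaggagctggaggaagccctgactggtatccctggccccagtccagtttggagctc
The GC box stood in COL12A1, COL15A1 and COL27A1 and not in the window of COL6A3. Searched on both strands, it lay in the windows of 21 of the 31 chains, against 42.6% of all 35116 windows. TATAAA lay in those of 7, against 10.7%, CCAAT in 11, against 32%, and the E-box CAGGTG in 5, against 17.5%. TGANTCA, an AP-1 site, lay in that of COL10A1 only, against 6.57% of all windows, and the palindrome GTCTAGAC lay in none, against 0.182%. Some chains have more than 1 window, so a share of genes and a share of windows are not on the same footing. The median window of the chains was 64% G and C, against 58% over all windows. Chains without a window here were COL1A1, COL1A2, COL2A1, COL3A1, COL5A2, COL6A1, COL6A5, COL8A1, COL9A3, COL14A1, COL20A1 and COL22A1.

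Genes for folding, modifying, processing, crosslinking, binding and cleaving collagen were listed as partners of the chains. Of 51 such genes, 11 rose in A549, against 4.15% of all genes, and 0 fell, against 3.87%. Another 4 were lower in A549 at a limma adjusted p below 0.05 but by less than 2-fold. In HCC827 17 rose, against 4.89% of all genes, and 3 fell, against 6.58%. In NCI-H358 15 rose, against 3.96%, and 1 fell, against 5.42%. The medians were 0.25, 0.40 and 0.62 in A549, HCC827 and NCI-H358. Up in all 3 lines were 3 of the 51, against 0.761% of all genes. These were LOX and LOXL1, lysyl oxidases that crosslink collagen, and MRC2, the receptor that takes up collagen for degradation. LOX rose by 2.77, 2.83 and 3.95 log2 units in A549, HCC827 and NCI-H358. LOXL1 rose by 1.20, 3.74 and 3.80 and MRC2 by 1.38, 3.45 and 2.53. Of 10 collagen receptors, 5 rose in A549, against 4.15% of all genes, 1 in HCC827, against 4.89%, and 1 in NCI-H358, against 3.96%. The 5 were ITGA1, ITGA2, ITGA11, DDR1 and MRC2, named after their values were seen. The integrin chains ITGA1 and ITGA11 rose by 4.58 and 3.50 in A549. Of the 10 receptors, 0 fell in A549, against 3.87% of all genes, 1 in HCC827, against 6.58%, and 1 in NCI-H358, against 5.42%. DDR1 fell in HCC827, with a change of -1.58 (limma adjusted p = 6.35e-10). ITGA2 fell in NCI-H358, with a change of -2.25 (limma adjusted p = 1.22e-10). Of 6 collagenases and gelatinases, 2, 4 and 3 rose.

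Markers of other cell types were followed beside the chains. Of 7 fibroblast markers, 2 rose and 1 fell in A549, 2 rose in HCC827 and 1 rose in NCI-H358. LUM, which encodes the fibril-binding proteoglycan lumican, rose in all 3 lines, FAP rose in A549 and HCC827, and TWIST2 fell in A549. The mean level of the 7 lay between 5.06 and 5.35 in parental arrays and between 5.78 and 6.45 in mesenchymal arrays. None of the 4 endothelial markers rose or fell, and their mean level lay between 4.23 and 4.70 over all arrays. Of the 6 leukocyte markers, CD14 fell in A549 and none rose. The part of any of these in the changes of the collagen chains was not tested.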

How the data were processed

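RNA of parental and TGFβ-induced mesenchymal cells was hybridised by the authors to Affymetrix U133 Plus 2.0 arrays. The deposited values are log2 levels that the authors obtained by RMA (version not given in the sources used here), which corrects background, normalises quantiles between arrays and summarises each probe set. The deposited table holds 1 probe set per gene, and the rule of choice is not given in the sources used here. Quantile normalisation forces a common distribution on the arrays, so changes are relative to the other genes.

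All 18 arrays were fitted in 1 model of 6 groups with limma 3.58.1 in R 4.3.3, with Benjamini-Hochberg adjustment over all 19849 genes, after a test on simulated data. Contrasts were mesenchymal minus parental in each line, the differences of these between lines, and lines within a state. Groups of 3 against 3 allow no exact permutation test below 0.1, so single genes were judged by limma. Array values were given for the 15 chains past limma adjusted p below 1e-05 and 5-fold in at least 1 line, and, outside this rule and chosen after their values were seen, for their type IV relatives COL4A3, COL4A5 and COL4A6. Members, gene lists, classes and tests were chosen with earlier results of these data known. Alternatives were a fit per line, an intensity trend, a robust prior, a filter on mean levels under 5, median centring, the t-test, other thresholds and leaving out each array. The number of arrays limits the precision.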

Additional observations from a re-analysis of the deposited data

Results flagged for a closer look

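The chains below are the 15 that passed the stricter thresholds in at least 1 line, with COL4A6 added. Of the 15, 10 passed in 1 line only, so a difference between lines was partly built into the choice. The change upon EMT differed between lines for each, by the test of the difference itself in limma with adjustment over all genes. Among all collagen chains 33 differed in this way, against 60.2% of all genes. Some chains not listed, such as COL8A1, differed by more than COL1A1 did. For each listed chain the pair of lines with the largest difference is given, in log2 units. For HCC827 minus A549 the difference was 6.98 for COL3A1, 4.13 for COL6A1, 3.39 for COL6A2, 3.00 for COL7A1 and 2.91 for COL6A3 (adjusted p between 3.73e-14 and 2e-09 for COL6A1, COL6A2, COL6A3 and COL7A1, and 7.68e-14 for COL3A1). In the same pair it was 2.89 for COL4A4, 1.97 for COL12A1, 1.88 for COL27A1 and 0.996 for COL1A1, and -4.14 for COL11A1. For NCI-H358 minus A549 it was 3.52 for COL4A6 and -3.96 for COL22A1. For NCI-H358 minus HCC827 it was -6.84 for COL5A1, -5.49 for COL10A1, -3.66 for COL15A1 and -3.06 for COL4A1. Groups of 3 arrays are too small for a search for outlying arrays.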

How the results depend on the processing

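A separate fit per line, an intensity trend, a robust variance prior and median centring left each count of chains within 1.5 times its value, and no called value changed sign under any alternative. With genes of mean level 5 or more, 2 chains fell in A549 and 1 in NCI-H358. The methods name limma for the arrays and Student's t-test for data where no other test is given. With the t-test, 0, 0 and 0 chains in A549, HCC827 and NCI-H358 passed adjusted p below 1e-05 with over 5-fold. Limma called 5, 12 and 4. At an unadjusted t-test p below 0.05 with over 5-fold the t-test gave 5, 12 and 4, but this is a much looser rule. At adjusted t-test p below 0.05 with over 2-fold it gave 12, 17 and 12 up and 4, 6 and 2 down, as limma did. Shares of all genes were not counted for the t-test or for the genes of mean level 5 or more. The counts of 0 therefore cannot tell whether collagen chains differ from other genes under the t-test. With limma at adjusted p below 0.05 and over 4-fold, 6 chains rose and 1 fell in A549 (1.56% and 1.04% of all genes). In HCC827 13 rose and 0 fell (1.75% and 2.09%), and in NCI-H358 7 rose and 0 fell (1.14% and 1.77%). Over 1.5-fold, 14, 19 and 15 rose in A549, HCC827 and NCI-H358 (7.33%, 9.66% and 8.72%), and 5, 8 and 5 fell (10.0%, 12.5% and 10.1%). At adjusted p below 1e-05 and over 2-fold, 15, 21 and 13 chains passed (7.35%, 10.7% and 8.70%), and over 10-fold 4, 10 and 1 passed (0.877%, 1.17% and 0.826%).

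Leaving out 1 array moved a call of the 2-fold rule in 5 fits. COL6A3 in A549, COL8A2 in HCC827 and COL15A1 in NCI-H358 (under either of a pair of arrays) lost the call, and COL4A2 in NCI-H358 gained it at 1.02 without the second parental array. The change of COL11A1 in NCI-H358 lost its limma call in a separate fit per line (adjusted p = 0.0533) and with the t-test, as did that of COL4A4 in NCI-H358 with the t-test, and the change of COL4A1 in NCI-H358 gained a call with an intensity trend (adjusted p = 0.0495). Dim probe sets limit what can be said of COL1A2 and of chains under a mean level of 5. No paired analysis was possible because the labels give no replicate numbers shared between groups.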
